A study of Mus musculus with 42 samples.

Results

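Voltage-gated sodium and calcium channels were examined as 1 set of genes across mouse forebrain neurons that had been sorted by hand for a fluorescent label and profiled on Affymetrix expression arrays. The set holds every gene whose symbol begins with Scn and a number, or with Cacna, Cacnb or Cacng, among probe sets that the platform annotation ties to a single gene. It comprises 47 of the 20380 single-gene probe sets, and 32 of 12393 genes once the brightest probe set stood for each gene. The pore-forming subunits number 17 (8 sodium and 9 calcium) and the auxiliary subunits 15. Values are the deposited array intensities, analysed as log2(intensity + 16), so all differences are log2 differences on that scale. Each group had 3 arrays from different mice or pools of mice, and the mean correlation between arrays over all genes was 0.98 within groups and 0.94 between groups.

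The 42 arrays form 14 groups, named here as in the labels. GIN-Hippocampus and GIN-CingulateCortex are somatostatin-positive GFP interneurons of mixed GIN and C57BL/6j mice, a line in which only some somatostatin cells are labelled. G42-CingulateCortex holds parvalbumin-positive GFP interneurons of mixed G42 and C57BL/6j mice, and G42-LGN holds GFP interneurons of the same line from the lateral geniculate nucleus. G30-CingulateCortex and G30-SomatosensoryCortex are GFP interneurons of the G30 line, alone or mixed with C57BL/6j, and G30-Amygdala is described only as GFP neurons. CT6-CingulateCortex holds layer 6 pyramidal neurons of C57BL/6j mice, filled backwards with fluorescent beads from the medial dorsal thalamus. The 4 YFPH groups carry a YFP transgene in mixed YFPH and C57BL/6j mice: layer 5 pyramidal neurons in YFPH-CingulateCortex and YFPH-SomatosensoryCortex, pyramidal neurons in YFPH-Hippocampus, and neurons of unstated class in YFPH-Amygdala. Mice were males of 57 to 86 days where an age is given, except the YFPH-Hippocampus and YFPH-Amygdala mice, which were 91 days or older. Each sorted array was made from amplified RNA of 27 to 120 cells. GIN-Homogenate-CingulateCortex and G42-Homogenate-CingulateCortex are unsorted dissociated cells of the same cortex from GIN and G42 mice, with no age or cell number used here.

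Voltage-gated sodium channels carry the inward current of the action potential, and voltage-gated calcium channels admit the calcium that drives transmitter release, bursting and gene regulation. A pore subunit sets the voltage range and the kinetics of each channel. Auxiliary subunits adjust its gating and its traffic to the membrane, and several proteins named as calcium channel gamma subunits instead escort AMPA-type glutamate receptors.

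The start-site sequences of the 3 alpha2delta genes and of Cacng2 are printed because these auxiliary genes separated the neuron types in 4 different patterns. The alpha2delta proteins lie outside the membrane and raise the number of calcium channels at release sites. Cacng2 encodes stargazin, an escort of AMPA receptors. Each sequence is the 250 bases before 1 transcript start of the gene in the RefSeq promoter table (build GRCm38.p6), 5′ to 3′ on the gene's strand. The annotated gene span begins upstream of the window or within it in all 4, and the capitals mark the GC box GGGCGG on either strand.
Cacna2d1: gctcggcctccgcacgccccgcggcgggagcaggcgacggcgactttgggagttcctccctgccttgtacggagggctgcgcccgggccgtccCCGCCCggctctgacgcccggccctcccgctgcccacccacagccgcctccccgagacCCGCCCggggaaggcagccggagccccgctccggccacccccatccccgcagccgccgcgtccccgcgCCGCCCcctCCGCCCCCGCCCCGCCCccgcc
Cacna2d2: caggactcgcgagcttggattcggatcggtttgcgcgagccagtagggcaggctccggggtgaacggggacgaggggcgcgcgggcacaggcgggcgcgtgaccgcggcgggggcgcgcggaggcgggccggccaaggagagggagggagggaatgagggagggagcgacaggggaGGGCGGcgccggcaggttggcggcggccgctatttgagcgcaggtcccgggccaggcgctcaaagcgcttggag
Cacna2d3: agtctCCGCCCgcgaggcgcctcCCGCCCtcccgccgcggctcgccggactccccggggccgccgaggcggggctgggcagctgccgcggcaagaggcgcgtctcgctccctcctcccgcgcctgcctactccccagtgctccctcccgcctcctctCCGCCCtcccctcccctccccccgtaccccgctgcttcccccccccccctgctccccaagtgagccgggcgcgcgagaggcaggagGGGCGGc
Cacng2: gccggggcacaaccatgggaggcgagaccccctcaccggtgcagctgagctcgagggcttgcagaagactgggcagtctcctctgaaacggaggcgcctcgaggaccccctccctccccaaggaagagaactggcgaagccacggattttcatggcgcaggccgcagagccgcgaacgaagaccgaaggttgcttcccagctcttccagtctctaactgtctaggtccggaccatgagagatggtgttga
Cacna2d1 lies at chr5:15934441-15934690 on the plus strand, Cacna2d2 at chr9:107399630-107399879 on the plus strand, Cacna2d3 at chr14:29721865-29722114 on the minus strand and Cacng2 at chr15:78119281-78119530 on the minus strand. The G and C content was 82.4% for Cacna2d1, 74.4% for Cacna2d2, 80% for Cacna2d3 and 62% for Cacng2. The GC box occurred 6 times in Cacna2d1, 1 time in Cacna2d2, 4 times in Cacna2d3 and not in Cacng2. A GC box was present in 32.7% of all 32851 RefSeq promoter windows of this length and in 14 of the 35 windows of channel genes. Searched on both strands, the E-box CACGTG, the TATA box TATAAA, the cyclic AMP response element TGACGTCA and the CAAT box CCAAT had no match in these 4 windows. Those motifs were present in 6.02%, 12.4%, 1.55% and 33.8% of all windows, respectively. Of the 32 genes, 25 had a window in the table.

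Marker genes were compared with the labels before the channels were described. Gad1, which encodes a GABA-synthesising enzyme, had group means of 11.2 to 12.1 in the 6 interneuron groups outside the amygdala and of 5.5 to 6.0 in the YFPH and CT6 groups. Sst peaked in GIN-CingulateCortex at 14.12 and Pvalb in G42-CingulateCortex at 13.42, the groups labelled for them. Sst also averaged 11.70 in G30-SomatosensoryCortex (arrays 1171 to 8922) and 10.98 in G30-CingulateCortex (1552 to 3139). Summed intensities of 4 pyramidal markers were 1620 to 4422 in G30-SomatosensoryCortex and 705 to 717 in G30-CingulateCortex. The part of these markers in the comparisons that use the G30 groups was not tested. Pvalb also reached 11.95 in YFPH-SomatosensoryCortex, where the arrays spanned 2023 to 5627, 11.72 in GIN-Hippocampus (2948 to 4302) and 9.30 in G42-LGN. In G30-Amygdala, Gad1 had a mean of 8.08 (array intensities 66.4 to 594), whereas the pyramidal markers Crym and Nrgn had means of 11.65 and 12.89. The labels give neither amygdala group a class, and both were kept out of the comparison of pyramidal with interneuron groups. Summed intensities of 7 astrocyte markers were 17290 to 25121 in unsorted cells and 1127 to 6589 in sorted groups. The array records mark YFPH-Hippocampus replicate 1 and YFPH-Amygdala replicate 2 as abnormally amplified. They note a new sorting method for YFPH-CingulateCortex replicate 3, which is also the only array of its group from the second scan year and belongs to the reference group of 3 comparisons. Of the 42 arrays, 37 correlated best with an array of their own group.

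Most channel genes differed between sorted groups, as did most genes on the array. The range of group means over the 12 sorted groups had a median of 0.75 for the channel genes and 0.61 for all genes. It exceeded 1 for 14 of the 32 channel genes (43.8%) and for 2657 of all genes (21.4%). Among pores 7 of 17 ranged over more than 1, and among auxiliary subunits 7 of 15. In limma's F test with Benjamini-Hochberg adjustment over all genes, 26 of the 32 differed among the sorted groups, against 75.2% of all genes. The 6 that did not pass were Scn3a, Cacna1b, Cacna1f, Cacnb2, Cacng1 and Cacng7, with adjusted p between 0.0746 and 0.496. The 9 members with a mean under the 25th percentile of all genes (intensity 203) were Scn3a, Scn7a, Scn9a, Scn10a, Cacna1h, Cacna1s, Cacnb2, Cacng1 and Cacng8, whose levels lie close to the dim end of the arrays.

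**Figure D1:**
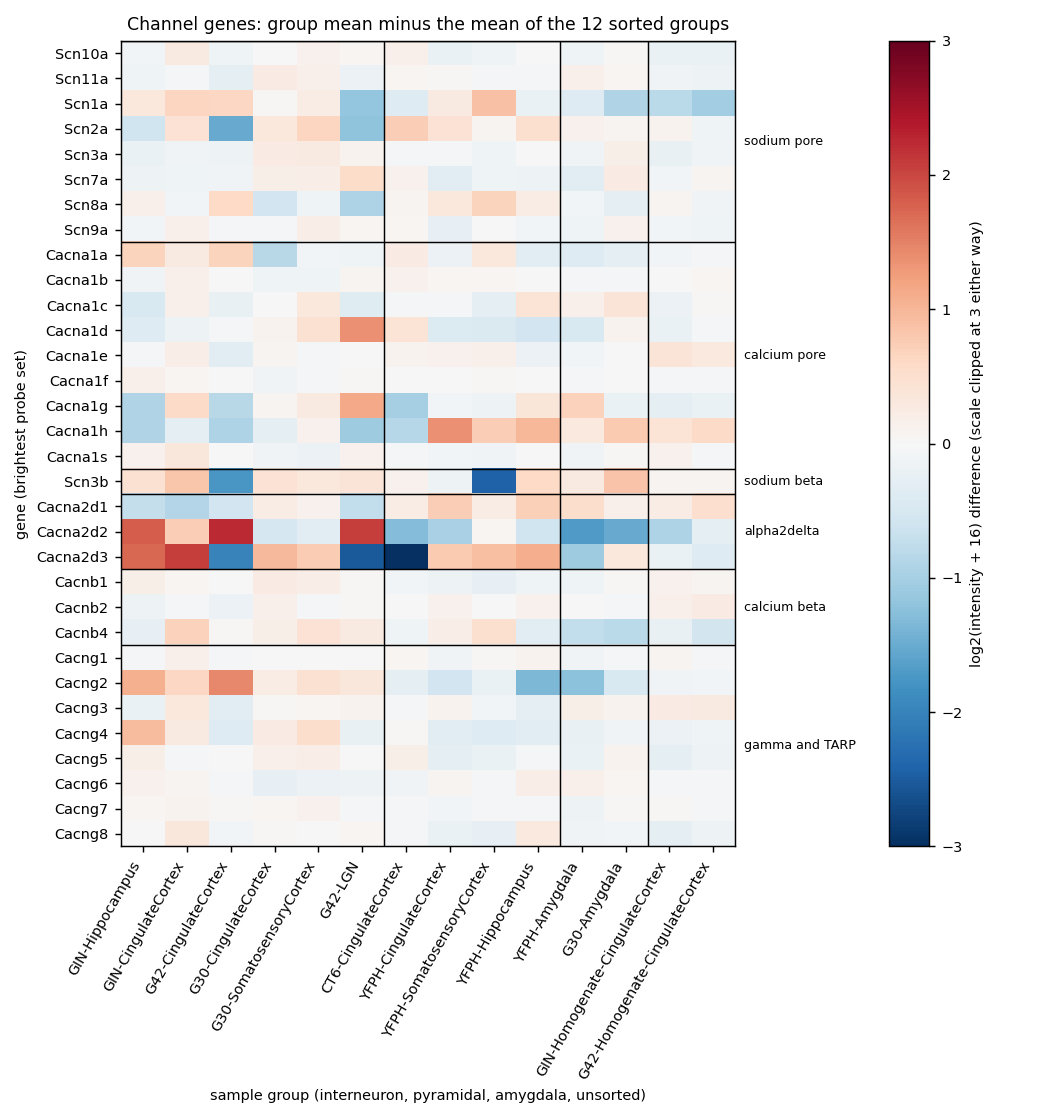
Mean log2 level of each of the 32 channel genes in each of the 14 groups, shown as the log2 difference from the gene's mean over the 12 sorted groups (colours clipped at 3), with roles in separate blocks. Cacna2d3 spans 5.13 between its lowest and highest sorted group and Cacna2d2 spans 3.92.

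Among the sodium pores, the 3 genes that carry most sodium current in adult brain each had a different order of groups. Scn1a, the pore enriched at the axon initial segment of fast-spiking interneurons, ranged over 2.05. Its intensities were 972, 866 and 702 in G42-LGN, 1104, 1012 and 929 in G30-Amygdala, 3022, 3192 and 2642 in G42-CingulateCortex and 3028, 3325 and 4362 in YFPH-SomatosensoryCortex. The YFPH-SomatosensoryCortex and G42-CingulateCortex arrays overlapped each other, and both groups lay above G42-LGN and G30-Amygdala, which also overlapped. The remaining sorted groups read from 1275 to 3454.

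Scn2a, the pore of unmyelinated axons and of young initial segments, ranged over 2.25. Its intensities were 898, 909 and 719 in G42-CingulateCortex, 939, 966 and 1228 in G42-LGN and 1647, 1502 and 1692 in GIN-Hippocampus. These 3 groups lay below every array of the other 11 groups, and no 2 of the 3 overlapped. The highest mean was in CT6-CingulateCortex, at 4715, 4268 and 3304, and its arrays overlapped those of GIN-CingulateCortex, G30-SomatosensoryCortex and YFPH-CingulateCortex, among others.

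Scn8a, the main pore of mature initial segments and nodes of Ranvier, ranged over 1.60. It read 1275, 1081 and 1146 in G42-LGN and 1242, 2005 and 1317 in G30-CingulateCortex. The highest groups were YFPH-SomatosensoryCortex at 3841, 3262 and 3626 and G42-CingulateCortex at 3855, 3083 and 3242, which overlapped. G42-LGN and G30-CingulateCortex overlapped through 1 array, and both lay below the 2 highest groups.

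The other sodium pores were flatter. Scn7a, which encodes a sodium sensor and not a voltage-gated pore, ranged over 0.88, Scn11a over 0.53, Scn10a over 0.47, Scn3a over 0.46 and Scn9a over 0.45. Scn9a, Scn10a and Scn11a are known from peripheral sensory neurons and Scn3a from the embryonic brain.

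Among the calcium pores, the T-type genes Cacna1g and Cacna1h and 1 L-type gene separated the groups most. T-type channels open near the resting potential and support bursts, and Cacna1g and Cacna1h encode forms of their pore. Cacna1g ranged over 2.12. Its intensities were 1365, 938 and 878 in G42-LGN, 450.4, 781 and 979.8 in GIN-CingulateCortex and 737, 731 and 799 in YFPH-Amygdala. They were 222, 228 and 231 in CT6-CingulateCortex, 229.8, 239 and 259.9 in GIN-Hippocampus and 269.6, 259 and 237 in G42-CingulateCortex, and these last 3 groups lay below every other array.

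Cacna1h ranged over 2.46, close to the dim end. Its intensities were 574, 340.4 and 528 in YFPH-CingulateCortex, 210.5, 387 and 552 in YFPH-Hippocampus and 313, 245 and 367 in G30-Amygdala. All 12 arrays of G42-LGN, GIN-Hippocampus, G42-CingulateCortex and CT6-CingulateCortex lay between 69.1 and 94.3, below every array of the other groups. The spread among the YFPH replicates was wide, with an SD of 0.39 to 0.67 on the log2 scale.

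Cacna1d, the L-type pore that activates at relatively negative voltages, was the 1 member specific to a group. Its intensities were 1625, 1522 and 1269 in G42-LGN and 816, 767 and 701 in G30-SomatosensoryCortex, the next highest group. It was higher in G42-LGN than in each of the other 11 sorted groups (largest of the 11 p-values in limma, adjusted p = 0.000186), a property of 1.4% of all genes. No member was specific as the lowest, against 0.621% of all genes. YFPH-Hippocampus held the lowest mean of Cacna1d at 427, 360.3 and 323, and the other YFPH groups overlapped it.

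Cacna1a, the P/Q-type pore of fast transmitter release, ranged over 1.49. Its intensities were 316, 334 and 390.4 in G30-CingulateCortex, 1043, 1008 and 953 in G42-CingulateCortex and 983, 937 and 1082 in GIN-Hippocampus. The G42-CingulateCortex and GIN-Hippocampus arrays overlapped and lay above every other array. YFPH-Hippocampus was spread over 292, 585 and 726. Cacna1b, the N-type pore, ranged over 0.28 and read between 480.1 and 720.1 on every sorted array. Cacna1e, the R-type pore, ranged over 0.54, from a mean of 8.11 in G42-CingulateCortex to 8.65 in GIN-CingulateCortex. Cacna1c, the other L-type pore of brain, ranged over 0.87, Cacna1s over 0.51 and Cacna1f over 0.27; the last 2 are best known from skeletal muscle and retina.

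**Figure D2:**
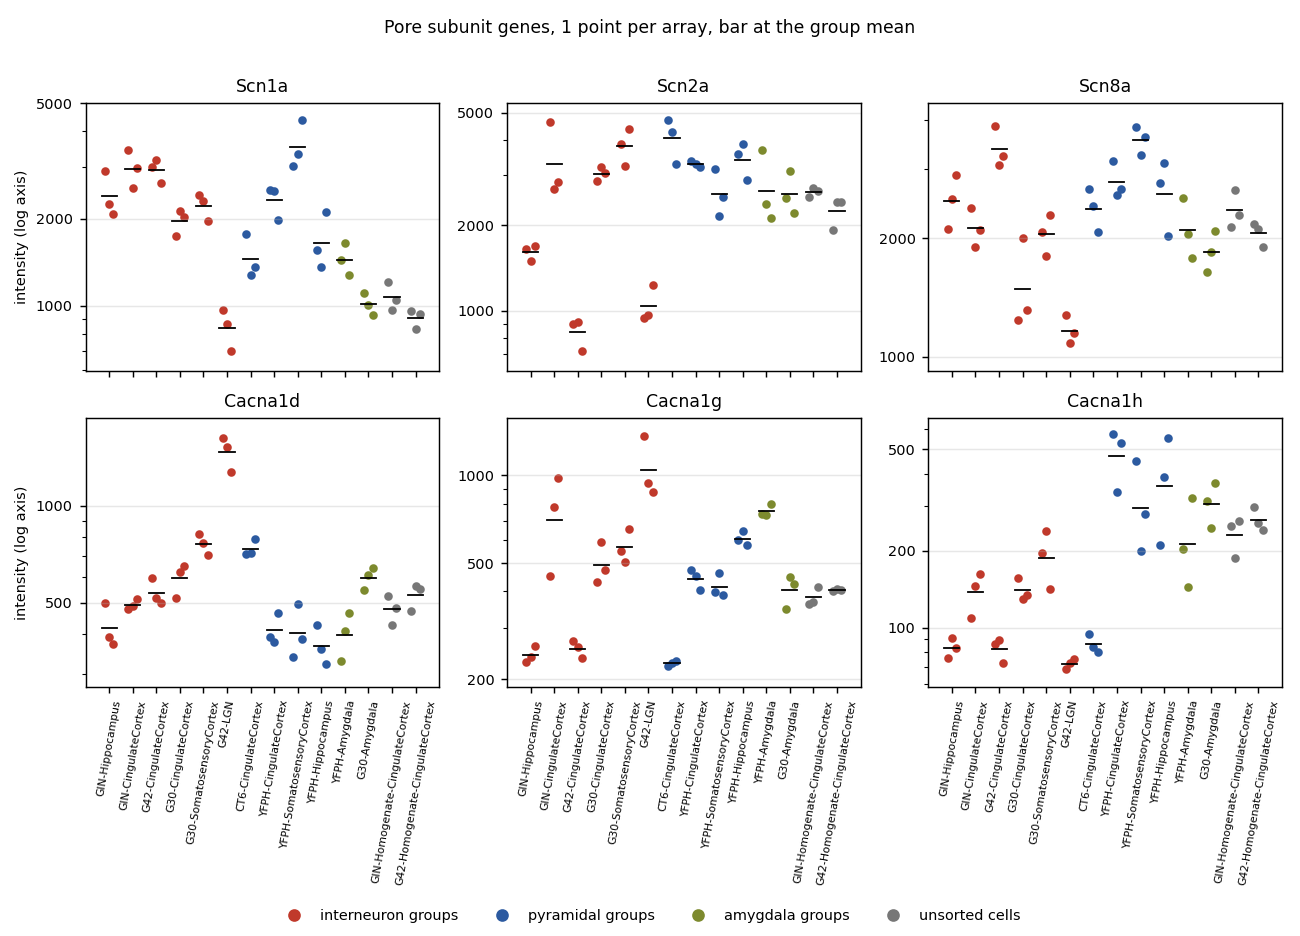
Array intensity (log axis) of 6 pore genes in each of the 14 groups, coloured by class, each point 1 array and each bar the mean of the log2 values. The Cacna1d points of G42-LGN (1269 to 1625) lie above all others, and the lowest Scn2a points are those of G42-CingulateCortex and G42-LGN.

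The widest ranges of the set were those of the auxiliary genes Cacna2d3, Cacna2d2, Scn3b and Cacng2. The typical auxiliary subunit varied less: the median range was 0.63 over auxiliary subunits, 0.87 over pores and 0.61 over all genes. Cacna2d3, an alpha2delta subunit, ranged over 5.13 between GIN-CingulateCortex and CT6-CingulateCortex. The CT6-CingulateCortex arrays lie below the 25th percentile of all genes (intensity 203), so the size of this range depends on the dim end of the arrays. Its intensities were 4371, 4718 and 4941 in GIN-CingulateCortex, 3461, 3543 and 4011 in GIN-Hippocampus, 2321, 2070.1 and 2090.3 in G30-CingulateCortex and 2037, 1921 and 1665 in G30-SomatosensoryCortex. They were 2053, 1834 and 1846 in YFPH-CingulateCortex, 2164, 1701 and 2363 in YFPH-SomatosensoryCortex and 1921, 2402 and 2839 in YFPH-Hippocampus. They were 119.6, 124 and 111 in CT6-CingulateCortex, 254, 130.4 and 173 in G42-LGN and 327, 191 and 286 in G42-CingulateCortex. These last 3 groups, which span both neuron classes, lay below every other array, and GIN-CingulateCortex lay above every other array. The amygdala groups were intermediate, at 651, 495 and 431 in YFPH-Amygdala and 1257, 1525 and 1319.7 in G30-Amygdala.

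Cacna2d2, an alpha2delta subunit that binds gabapentin, ranged over 3.92. Its intensities were 5895, 5802 and 5489 in G42-CingulateCortex, 4667, 5739 and 5061 in G42-LGN and 4659, 4421 and 3774 in GIN-Hippocampus. GIN-CingulateCortex read 1748, 1889.5 and 2566, below those 3 groups and above all the rest. The lowest groups were YFPH-Amygdala at 331, 367 and 391 and G30-Amygdala at 391, 429 and 412, which adjoined without overlap. Among pyramidal groups YFPH-SomatosensoryCortex stood highest, at 1181, 1223 and 1374.

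Cacna2d1, the other gabapentin-binding alpha2delta subunit, ranged over 1.61. Its intensities were 244, 288 and 256 in GIN-CingulateCortex, 322, 244 and 317 in GIN-Hippocampus, 369, 289 and 323 in G42-CingulateCortex and 286, 284 and 303 in G42-LGN. These 4 interneuron groups lay below every array of the remaining groups. YFPH-CingulateCortex read 920.0, 866 and 719 and G30-CingulateCortex read 663, 567 and 516, so the G30 interneurons were among the groups with the higher values of this gene.

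Scn3b, a sodium channel beta subunit that modulates gating, ranged over 3.30. Its intensities were 409.5, 565 and 228 in YFPH-SomatosensoryCortex and 619.7, 619 and 608 in G42-CingulateCortex. Every array of the other 12 groups lay at 1676 or more, up to 4076. The low values thus fell in 1 of the 4 YFPH groups and in the parvalbumin-labelled group, and G42-LGN, from the same G42 line, read 2753, 2707 and 2861.

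The calcium channel beta subunits bind the pore from inside the cell. Cacnb4 ranged over 1.504 and was highest in GIN-CingulateCortex at 2999, 3012 and 2549 and lowest in G30-Amygdala at 794, 1383 and 891. Cacnb1 ranged over 0.49 and Cacnb2 over 0.34. Among the gamma subunits and AMPA receptor escorts, Cacng2 ranged over 2.79. Its intensities were 1927, 1709 and 1908 in G42-CingulateCortex and 249, 291 and 226 in YFPH-Hippocampus. The pyramidal groups spanned 226 to 618.5 and the interneuron groups outside the amygdala 714 to 1927, with no overlap. Cacng4, another escort, ranged over 1.35, and GIN-Hippocampus read 2284, 2004 and 1757, above every array of the other groups. Cacng3, Cacng5 and Cacng8, also escorts, ranged over 0.63, 0.45 and 0.59. Cacng7 ranged over 0.27, Cacng6 over 0.45 and the muscle gene Cacng1 over 0.26.

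**Figure D3:**
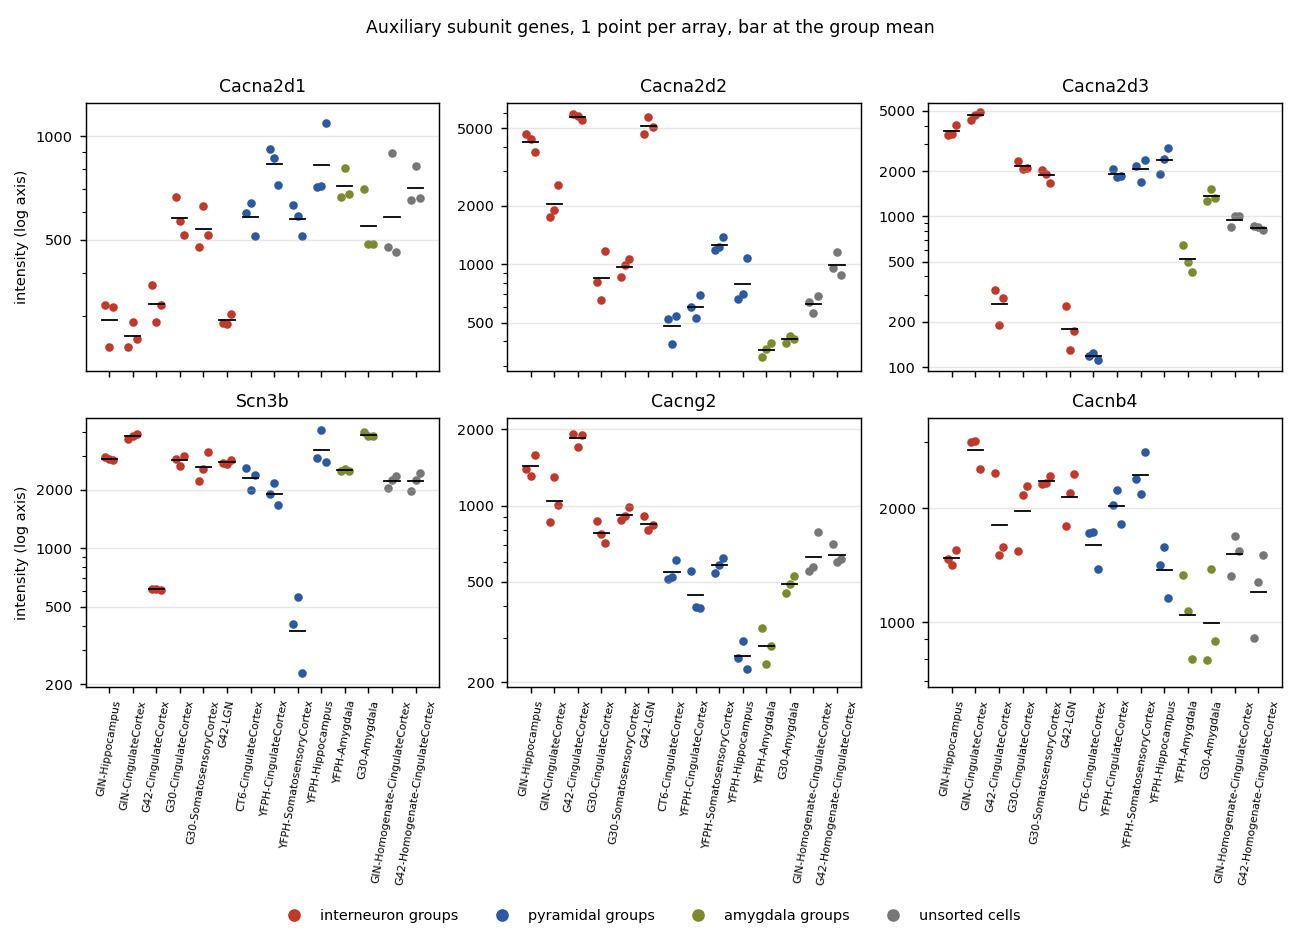
Array intensity (log axis) of 6 auxiliary genes in each of the 14 groups, coloured by class, each point 1 array and each bar the mean of the log2 values. Cacna2d3 is lowest in CT6-CingulateCortex, G42-LGN and G42-CingulateCortex, and Scn3b in YFPH-SomatosensoryCortex and G42-CingulateCortex.

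Pyramidal groups were compared with interneuron groups as the mean of CT6-CingulateCortex, YFPH-CingulateCortex, YFPH-SomatosensoryCortex and YFPH-Hippocampus against the mean of the 6 interneuron groups outside the amygdala (12 against 18 arrays). Arrays are the replicates here, so the p-values measure spread within groups and not between cell types. On that footing more auxiliary subunits were lower than higher in pyramidal groups, and the sodium pores Scn2a and Scn8a were higher. Single groups crossed the classes: the second-highest mean was in G30-SomatosensoryCortex for Scn2a (11.90) and in G42-CingulateCortex for Scn8a (11.73). Of the 32 members, 4 were higher and 13 lower at an adjusted p under 0.05 in limma, together 53.1% of the set. Over all genes 18.7% were higher and 26.4% lower, together 45.1%. Among pores 3 were higher and 4 lower of 17, and among auxiliary subunits 1 was higher and 9 lower of 15. The median difference was -0.08 over the members, -0.14 over the auxiliary subunits and -0.03 over all genes.

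Cacna2d2 and Cacng2 differed most, by -1.71 (SE 0.08, adjusted p = 2.78e-19) and -1.29 (SE 0.07, adjusted p = 4.24e-18) in limma with Benjamini-Hochberg adjustment. The group means of the classes did not overlap for 2 members, Cacng2 and Cacnb1 (6.25%), against 8.11% of all genes. The other auxiliary genes that were lower were Scn3b (-0.57), Cacng4 (-0.50), Cacnb1 (-0.27), Cacna2d3 (-0.24), Cacng5 (-0.14), Cacng7 (-0.12) and Cacng8 (-0.12). Pyramidal groups were not alike for Scn3b and Cacna2d3. Scn3b had a mean of 8.62 in YFPH-SomatosensoryCortex, 10.91 in YFPH-CingulateCortex and 11.65 in YFPH-Hippocampus. Cacna2d3 had 7.07 in CT6-CingulateCortex and 10.91 in YFPH-CingulateCortex. Both genes were also low in the interneuron group G42-CingulateCortex (9.30 and 8.12). Cacna2d1 was the auxiliary gene that was higher, by 0.90 (SE 0.08, adjusted p = 6.01e-11). Among pores, Cacna1h was higher by 1.12 (SE 0.12, adjusted p = 8.56e-10), Scn2a by 0.76 (SE 0.08, adjusted p = 3.32e-09) and Scn8a by 0.48 (SE 0.07, adjusted p = 2e-06). The higher Cacna1h did not extend to CT6-CingulateCortex, at 6.67, against 8.92 in YFPH-CingulateCortex and 6.62 in G42-CingulateCortex. Cacna1d was lower by -0.48 (SE 0.06, adjusted p = 9.89e-08), and Cacna1g (-0.27), Scn7a (-0.21) and Cacna1s (-0.11) were also lower. Scn1a (0.03), Cacna1a (-0.08), Cacna1b (0.08), Cacna1e (0.07) and Cacng3 (-0.08) did not pass the test.

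The number of members called depended on how the classes were formed. With each cell type counted as 1 replicate only Cacng2 passed (3.12% of members, 4.58% of all genes). With the cingulate groups alone 11 members passed (34.4% against 25.7%), Cacna1d and Scn3b then having differences of 0.026 and 0.16. Scan years held the classes unevenly: on arrays of the second year alone, 5 pyramidal arrays of 3 groups against 18, 10 members passed (31.2% against 18.7%), among them Cacna2d2 (-1.70), Cacng2 (-1.10), Cacna1h (0.85), Cacna2d1 (0.76) and Scn2a (0.64). Cacna1d was not called on those arrays (-0.22, adjusted p = 0.0921 in limma), and Scn7a was at 0.013. With scan year as a block 10 members passed (31.2% against 16.6%), and Scn7a (0.066) and Cacng5 (0.059) changed sign without being called. Leaving out any of 20, 16 and 19 single arrays, respectively, ended the calls on Cacna1s (-0.12 to -0.09), Cacng5 (-0.14 to -0.11) and Cacng8 (-0.12 to -0.09), and Cacng7 was lost without YFPH-CingulateCortex replicate 2 (-0.10, adjusted p = 0.0504).

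**Figure D4:**
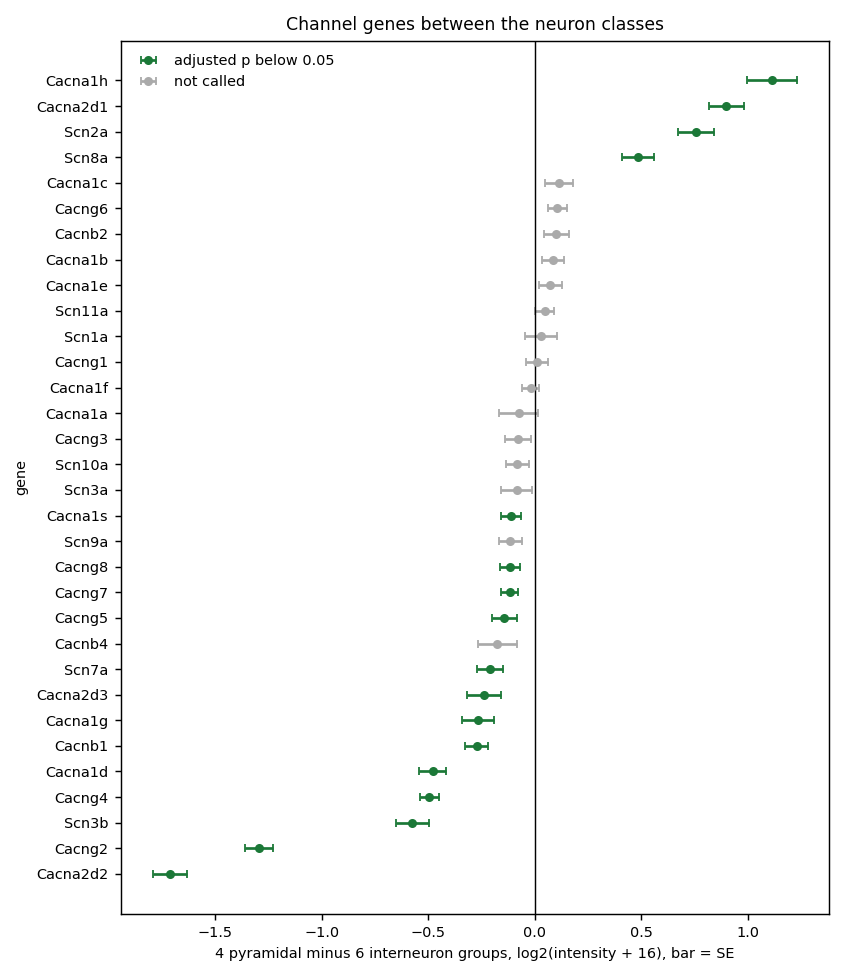
Difference of each channel gene between pyramidal and interneuron groups (log2, pyramidal minus interneuron), with standard error bars, green where the adjusted p was under 0.05 and grey otherwise. Cacna2d2 (-1.71) and Cacng2 (-1.29) lie at one end and Cacna1h (1.12) at the other.

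Within cingulate cortex, somatostatin-labelled interneurons (GIN-CingulateCortex) were compared with parvalbumin-labelled ones (G42-CingulateCortex). The somatostatin group had more Cacna2d3, Scn3b, Scn2a and Cacna1g, and the parvalbumin group more Cacna2d2, Cacng2 and Scn8a. In all, 12 members were higher and 3 lower in GIN-CingulateCortex, 46.9% of the set. Over all genes 17.7% were higher and 9.5% lower, together 27.2%. The arrays of 19 members did not overlap (59.4% against 39.6% of all genes). Cacna2d3 differed by 4.08 (SE 0.17, adjusted p = 4.74e-19), Scn3b by 2.59 (SE 0.17, adjusted p = 1.01e-13), Scn2a by 1.95 (SE 0.18, adjusted p = 5.11e-10) and Cacna1g by 1.41 (SE 0.17, adjusted p = 6.46e-08) in limma. Cacna2d2 differed by -1.48 (SE 0.17, adjusted p = 5.12e-08), Cacng2 by -0.82 (SE 0.14, adjusted p = 5.68e-05) and Scn8a by -0.67 (SE 0.16, adjusted p = 0.00247). The remaining 8 called members were higher in GIN-CingulateCortex by 0.33 to 0.66, namely Cacna1c, Cacna1e, Cacna1s, Cacnb4, Cacng3, Cacng4, Cacng8 and Scn10a. Scn1a (0.01), Cacna1a (-0.39) and Cacna1b (0.14) did not pass. The 3′ minus 5′ difference of the Gapdh control probes, a sign of RNA length, averaged 3.21 in GIN-CingulateCortex and 1.98 in G42-CingulateCortex. With that difference as a covariate 8 members passed (25% against 12% of all genes), and Scn8a was then at -0.51 (adjusted p = 0.125). Its part in the other differences was not tested further. Single arrays decided 4 of the smaller calls: Cacna1c was lost without GIN-CingulateCortex replicate 1 or 2 or G42-CingulateCortex replicate 1 or 2 (0.29 to 0.41), and Cacna1s without GIN-CingulateCortex replicate 1 or 2 or G42-CingulateCortex replicate 1 (0.24 to 0.31). Cacnb4 was lost without GIN-CingulateCortex replicate 2 or G42-CingulateCortex replicate 2 or 3 (0.52 to 0.61), and Scn10a without GIN-CingulateCortex replicate 2 or G42-CingulateCortex replicate 1 (0.29 and 0.37).

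The G30 interneurons of cingulate cortex were set against the same G42-CingulateCortex arrays, so the comparison shares its control with the one before. The G30 cells had more Cacna2d3, Scn3b and Scn2a and less Cacna2d2, Cacng2 and Scn8a than G42-CingulateCortex. Of the members, 8 were higher and 5 lower, 40.6%, against 6.3% and 6.71% of all genes (13% in either direction). In this pair 19 members did not overlap (59.4% against 29.8%). Cacna2d3 differed by 2.97 (SE 0.17, adjusted p = 1.96e-15), Scn3b by 2.18 (SE 0.17, adjusted p = 5.15e-12), Scn2a by 1.84 (SE 0.18, adjusted p = 1.48e-09) and Cacna1g by 0.91 (SE 0.17, adjusted p = 0.000108) in limma. Cacna2d2 differed by -2.73 (SE 0.17, adjusted p = 1.55e-14), Cacna1a by -1.49 (SE 0.20, adjusted p = 6.63e-07), Cacng2 by -1.22 (SE 0.14, adjusted p = 5.14e-08) and Scn8a by -1.18 (SE 0.16, adjusted p = 1.32e-06). Cacna1a was thus lower in the G30 group. Cacna2d1 (0.80), Cacng4 (0.61), Scn11a (0.53) and Cacna1e (0.42) were also higher and Scn1a (-0.59) lower. Cacna1e was lost without G42-CingulateCortex replicate 2 or G30-CingulateCortex replicate 2 (0.34 and 0.40), and Scn1a without G42-CingulateCortex replicate 2 or G30-CingulateCortex replicate 1 (-0.53 and -0.50). The Gapdh difference averaged 2.61 in G30-CingulateCortex, and as a covariate it ended these same calls (0.28 and -0.53). Vip, a peptide of another interneuron class, had means of 12.47 and 12.52 in the cortical G30 groups.

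Layer 6 corticothalamic neurons (CT6-CingulateCortex) were compared with layer 5 pyramidal neurons (YFPH-CingulateCortex) of the same cortex. Layer 6 cells had less Cacna2d3, less of the T-type genes Cacna1g and Cacna1h and more Cacna1d. For Cacna2d3 and Cacna1h the CT6-CingulateCortex arrays were near the dim end, on which the sizes of those differences depend. The calls were 4 higher and 4 lower, 25% of the members, against 5.12% and 5.33% of all genes (10.4% in either direction). The arrays of 13 members did not overlap (40.6% against 28.7%). Cacna2d3 differed by -3.84 (SE 0.17, adjusted p = 6.15e-18), Cacna1h by -2.25 (SE 0.26, adjusted p = 5.74e-08), Cacna1g by -0.91 (SE 0.17, adjusted p = 0.000202) and Scn1a by -0.66 (SE 0.16, adjusted p = 0.00605) in limma. Cacna1d differed by 0.81 (SE 0.14, adjusted p = 6.85e-05), and Cacng5 (0.44), Scn7a (0.44) and Cacng4 (0.37) were called higher. Scn2a (0.30), Scn8a (-0.23), Cacna2d1 (-0.51), Cacna2d2 (-0.32) and Cacng2 (0.29) did not pass. Scanning took place in the second year for all CT6-CingulateCortex arrays and in the first for YFPH-CingulateCortex replicates 1 and 2. A block for scan year left calls on Cacna2d3, Cacna1h, Cacna1g and Cacna1d (12.5% of members against 3.85% of all genes) and ended the other 4. Cacng4 (0.35 and 0.35), Cacng5 (0.39 and 0.39) and Scn7a (0.42 and 0.34) were also lost without YFPH-CingulateCortex replicate 1 or 2, and with the compared arrays alone. Cacng4 and Cacng5 were lost without CT6-CingulateCortex replicate 2 (0.34 and 0.39), and Cacng5 and Scn7a without CT6-CingulateCortex replicate 3 (0.42 and 0.32). The Gapdh 3′ minus 5′ difference averaged 2.86 in CT6-CingulateCortex and 2.12 in YFPH-CingulateCortex, with no overlap. As a covariate it left 5 of the 8 calls (15.6% of members against 5.65% of all genes) and ended those on Scn1a (-0.60), Cacng5 (0.29) and Scn7a (0.26).

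Layer 5 pyramidal neurons of somatosensory cortex (YFPH-SomatosensoryCortex) were compared with those of cingulate cortex (YFPH-CingulateCortex). Scn3b was lower and Cacna2d2 higher in the somatosensory cells, and no pore gene passed. These 2 members were 6.25% of the set, where 0.678% of all genes were higher and 0.549% lower (1.23% together). The arrays of 8 members did not overlap (25% against 11.2%). Scn3b differed by -2.29 (SE 0.17, adjusted p = 3.07e-11) and Cacna2d2 by 1.04 (SE 0.17, adjusted p = 0.000266) in limma. On the 1 scan day that held an array of each group the differences were -2.17 and 0.96. Scn1a had a difference of 0.61 (SE 0.16, adjusted p = 0.0554). YFPH-SomatosensoryCortex was also the pyramidal group with high Pvalb (11.95), and the part of this in the result was not tested. G30 interneurons of the same regions showed 0 called members and 6 at an unadjusted p under 0.05 in limma. Of all genes 0.145% were higher and 0.0484% lower (0.194% together). There 8 members did not overlap (25% against 10.5%), and Cacna1a, at 0.74 (SE 0.20, adjusted p = 0.15), passed when the arrays marked in the records were left out of the fit (adjusted p = 0.0126). The change of Scn3b differed between the lines by -2.18 (SE 0.24, adjusted p = 7.88e-07 in limma), a test passed by 0.436% of all genes.

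Hippocampal pyramidal neurons (YFPH-Hippocampus) were compared with cingulate layer 5 neurons (YFPH-CingulateCortex). Scn3b, Cacng8 and Cacna1c were higher and Cacng2 lower in the hippocampus. These 4 were 12.5% of the members, where 3.74% of all genes were higher and 4.34% lower (8.09% together). The arrays of 7 members did not overlap (21.9% against 23.7%). Cacng2 differed by -0.76 (SE 0.14, adjusted p = 0.000373), Scn3b by 0.75 (SE 0.17, adjusted p = 0.00383), Cacng8 by 0.47 (SE 0.11, adjusted p = 0.00305) and Cacna1c by 0.45 (SE 0.14, adjusted p = 0.0429) in limma. Cacna1c (0.23) and Scn3b (0.57) no longer passed without YFPH-Hippocampus replicate 2, nor Cacng8 (0.28) without YFPH-Hippocampus replicate 3. Cacna1c was also lost without any 1 of the YFPH-CingulateCortex arrays (0.42 to 0.48), and with the Gapdh difference (2.53 in YFPH-Hippocampus, 2.12 in YFPH-CingulateCortex) as a covariate (0.46). Scn2a (0.05), Scn8a (-0.10), Cacna2d1 (-0.02) and Cacna2d3 (0.30) had no called difference.

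Hippocampal somatostatin interneurons (GIN-Hippocampus) were compared with the cingulate ones (GIN-CingulateCortex). The hippocampal cells had less Cacna1g, Scn2a, Cacnb4 and Cacna1c and more Cacna2d2, Cacng4 and Cacng2. Of the members 3 were higher and 7 lower, 31.2% of the set, against 7.64% and 7.34% of all genes (15% in either direction). The arrays of 16 members did not overlap (50% against 25.2%). Cacna1g differed by -1.47 (SE 0.17, adjusted p = 5.39e-08), Scn2a by -1.02 (SE 0.18, adjusted p = 0.000201), Cacnb4 by -0.94 (SE 0.20, adjusted p = 0.00141) and Cacna1c by -0.61 (SE 0.14, adjusted p = 0.00311) in limma. Cacna2d2 differed by 1.06 (SE 0.17, adjusted p = 4.14e-05), Cacng4 by 0.68 (SE 0.10, adjusted p = 7.96e-06) and Cacng2 by 0.45 (SE 0.14, adjusted p = 0.0293). Cacng3 (-0.53), Cacng8 (-0.32) and Scn10a (-0.35) were also lower. Cacng2 was not called without GIN-Hippocampus replicate 3 (0.38), GIN-CingulateCortex replicate 1 (0.32) or GIN-CingulateCortex replicate 3 (0.43). Cacng8 was lost without GIN-Hippocampus replicate 2 or 3 or GIN-CingulateCortex replicate 2 or 3 (-0.33 to -0.23), and Scn10a without GIN-Hippocampus replicate 2 or 3 or GIN-CingulateCortex replicate 1 or 2 (-0.37 to -0.25). Pvalb averaged 11.72 in GIN-Hippocampus and 9.25 in GIN-CingulateCortex, with no overlap, and its part in these differences was not tested. The Gapdh 3′ minus 5′ difference averaged 2.43 and 3.21, and as a covariate it ended the calls on Cacng8 (-0.26) and Scn10a (-0.17). The change from cingulate cortex to hippocampus differed between YFPH and GIN cells for 8 members, against 16.8% of all genes, and Cacna1g (1.92, SE 0.23, adjusted p = 3.01e-07) and Cacng2 (-1.22, SE 0.20, adjusted p = 5.49e-05) differed most in limma.

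The G42 line labelled cells in 2 regions, and the geniculate interneurons (G42-LGN) were compared with the cingulate ones (G42-CingulateCortex). Pvalb had means of 9.30 and 13.42 in these groups, and only the cingulate cells are labelled parvalbumin-positive. The geniculate cells had more Scn3b, Cacna1g, Cacna1d and Scn7a and less Scn1a, Scn8a, Cacng2 and Cacna1a. Of the members 6 were higher and 5 lower, 34.4% of the set, against 11.8% and 9.53% of all genes (21.3% in either direction). The arrays of 14 members did not overlap (43.8% against 40%). Scn1a differed by -1.79 (SE 0.16, adjusted p = 1.21e-10), Scn8a by -1.52 (SE 0.16, adjusted p = 4.77e-09), Cacng2 by -1.11 (SE 0.14, adjusted p = 2.85e-07) and Cacna1a by -0.79 (SE 0.20, adjusted p = 0.00318) in limma. Scn3b differed by 2.14 (SE 0.17, adjusted p = 4.93e-12), Cacna1g by 1.96 (SE 0.17, adjusted p = 1.67e-11), Cacna1d by 1.42 (SE 0.14, adjusted p = 4.53e-10) and Scn7a by 0.66 (SE 0.13, adjusted p = 0.000286). Cacna2d2 (-0.16), Scn2a (0.30) and Cacna1h (-0.16) did not pass. Cacng3 (0.42) and Cacna1e (0.36) were called higher and Cacna2d3 (-0.51), whose arrays overlapped, lower. Cacng3 was lost without G42-CingulateCortex replicate 2 or 3 or G42-LGN replicate 2 (0.40 to 0.42), and Cacna1e without G42-CingulateCortex replicate 2 or 3 or G42-LGN replicate 3 (0.27 to 0.36). Cacna2d3 was lost without G42-CingulateCortex replicate 1 or 3 or G42-LGN replicate 2 or 3 (-0.48 to -0.30). The Gapdh 3′ minus 5′ difference averaged 2.89 in G42-LGN and 1.98 in G42-CingulateCortex, with no overlap, and as a covariate it ended the calls on the same 3 genes (0.39, 0.15 and -0.49).

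In the amygdala, YFP-labelled neurons (YFPH-Amygdala) were compared with GFP-labelled G30 neurons (G30-Amygdala). The YFP cells had less Cacna2d3, Cacng2, Scn3b, Scn7a and Cacna1d and more Cacna1g and Scn1a. These 7 members were 21.9% of the set, where 7.49% of all genes were higher and 8% lower (15.5% together). The arrays of 11 members did not overlap (34.4% against 37.1%). Cacna2d3 differed by -1.37 (SE 0.17, adjusted p = 6.95e-07), Cacng2 by -0.77 (SE 0.14, adjusted p = 0.000289), Cacna1g by 0.87 (SE 0.17, adjusted p = 0.000357) and Scn3b by -0.61 (SE 0.17, adjusted p = 0.0144) in limma. Scn7a (-0.58), Cacna1d (-0.57) and Scn1a (0.51) were the others. Each scan year held arrays of 1 of these groups only, so scan year and cell type cannot be told apart within this pair. With scan year as a block over all groups Cacna2d3 alone passed (3.12% of members against 1.27% of all genes). Scn1a was also lost without YFPH-Amygdala replicate 1 or 2, or G30-Amygdala replicate 2 or 3 (0.41 to 0.51). The Gapdh 3′ minus 5′ difference averaged 2.29 in YFPH-Amygdala and 3.25 in G30-Amygdala, with no overlap. As a covariate it left calls on Cacna2d3, Cacng2 and Cacna1g (9.38% of members against 4.48% of all genes). It ended those on Scn3b (-0.52), Scn7a (-0.36), Cacna1d (-0.31) and Scn1a (0.42).

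Sorted cingulate interneurons were compared with unsorted cells of the same cortex, which hold neurons and glia together. In bulk cells, fewer cells of a type and less RNA per cell cannot be told apart. Scn1a and Cacna2d2 were higher, and Cacna2d1 and Cacna1h lower, in both sorted lines than in their unsorted cells. In GIN-CingulateCortex 10 members were higher and 2 lower, 37.5% of the set, against 13.2% and 12% of all genes (25.2% in either direction). The arrays of 16 members did not overlap (50% against 40.2%). Cacna2d3 differed by 2.28 (SE 0.17, adjusted p = 1.49e-12), Cacna2d2 by 1.68 (SE 0.17, adjusted p = 1.79e-09), Scn1a by 1.46 (SE 0.16, adjusted p = 1.23e-08) and Cacnb4 by 0.91 (SE 0.20, adjusted p = 0.000782) in limma. Cacna2d1 differed by -1.10 (SE 0.18, adjusted p = 1.95e-05) and Cacna1h by -0.69 (SE 0.26, adjusted p = 0.0457), the latter lost without GIN-CingulateCortex replicate 1 or 2 or GIN-Homogenate-CingulateCortex replicate 1 or 3 (-0.72 to -0.54). Cacna1g (0.85), Scn3b (0.76), Cacng2 (0.72), Cacng8 (0.64), Scn10a (0.47) and Cacng4 (0.45) were also higher. The Gapdh difference averaged 3.21 in sorted and 1.998 in unsorted GIN cells, and as a covariate it ended the calls on Cacna1h (-0.64) and Scn10a (0.19).

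In G42-CingulateCortex 6 members were higher and 9 lower than in unsorted G42 cells, 46.9% of the set, against 12.5% and 14.9% of all genes (27.5% in either direction). The arrays of 17 members did not overlap (53.1% against 45.2%). Cacna2d2 differed by 2.52 (SE 0.17, adjusted p = 7.13e-14), Scn1a by 1.68 (SE 0.16, adjusted p = 4.06e-10), Cacng2 by 1.51 (SE 0.14, adjusted p = 2.3e-10) and Scn8a by 0.71 (SE 0.16, adjusted p = 0.000908) in limma. Scn3b differed by -1.82 (SE 0.17, adjusted p = 1.94e-10), Cacna2d3 by -1.62 (SE 0.17, adjusted p = 3.28e-09), Cacna1h by -1.51 (SE 0.26, adjusted p = 1.79e-05) and Scn2a by -1.40 (SE 0.18, adjusted p = 2.15e-07). Cacna1a (0.70) and Cacnb4 (0.58) were also higher, and Cacna2d1 (-1.08), Cacna1g (-0.64), Cacna1e (-0.63), Cacng3 (-0.57) and Cacnb2 (-0.42) lower. Cacna1a was lost without G42-Homogenate-CingulateCortex replicate 3 (0.55), Cacnb4 without G42-CingulateCortex replicate 1 (0.35) or G42-Homogenate-CingulateCortex replicate 1 (0.38), and Cacnb2 without G42-CingulateCortex replicate 2 or 3 or G42-Homogenate-CingulateCortex replicate 1 (-0.37 to -0.34). Astrocyte and oligodendrocyte markers differed strongly between sorted and unsorted cells (oligodendrocyte sums 9997 to 19006 against 852 to 1900), and their part in these differences was not tested. For each line, some days held a sorted and an unsorted array (scan days, except that G42-Homogenate-CingulateCortex replicate 2 was dated by hybridization). On each such day every called member had the direction of the full comparison. These days reuse the arrays of that comparison, for GIN all of them, so their direction is not independent of it. The step from unsorted to sorted cells differed between the lines for 10 members, against 7.31% of all genes, and Cacna2d3 (3.90, SE 0.25, adjusted p = 8.83e-14) and Scn3b (2.58, SE 0.24, adjusted p = 1.57e-09) differed most in limma. That step shares its sorted arrays with the comparison of GIN-CingulateCortex and G42-CingulateCortex and is not independent of it.

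For 13 members more than 1 probe set was on the array, and these did not always follow each other. The second probe set of Cacng5 ranged over 3.96 across sorted groups, against 0.45 for the brightest one. It read 1676, 1157 and 1559.5 in GIN-CingulateCortex, 95.8, 85.3 and 83.2 in G42-CingulateCortex, and 79.6, 68.99 and 86 in YFPH-CingulateCortex. Its difference between GIN-CingulateCortex and G42-CingulateCortex was 3.81 (limma adjusted p = 4.44e-13), where the brightest probe set gave -0.05. The second probe set of Scn1a ranged over 3.14, and between pyramidal and interneuron groups it was lower by a difference of -0.66 (adjusted p = 9.3e-07 in limma), where the brightest gave 0.03. For Cacnb1 the brightest probe set was lower in pyramidal groups and the third was higher, by 0.38 (adjusted p = 7.14e-05 in limma), so its direction is not settled. Dimmer probe sets of Scn3b (range 0.52), Cacna1d (0.31), Cacna1h (0.23), Cacna2d1 (0.71) and Cacna2d2 (0.51 and 0.49) were flatter than the brightest ones. Their correlations with the brightest over sorted group means were 0.26, 0.57, -0.31, 0.46, 0.42 and -0.03, respectively. The dimmer probe set was highest in G30-CingulateCortex for Cacna1d and lowest in YFPH-Amygdala for Scn3b. The group patterns given for these genes thus rest mainly on the brightest probe set. The probe sets of Cacnb4 matched (1.504 and 1.51). Those of Scn2a, Scn1a, Cacna1a and Scn8a had correlations of 0.92, 0.90, 0.78 and 0.68. Which transcript ends each probe set reads was not examined here.

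**Figure D5:**
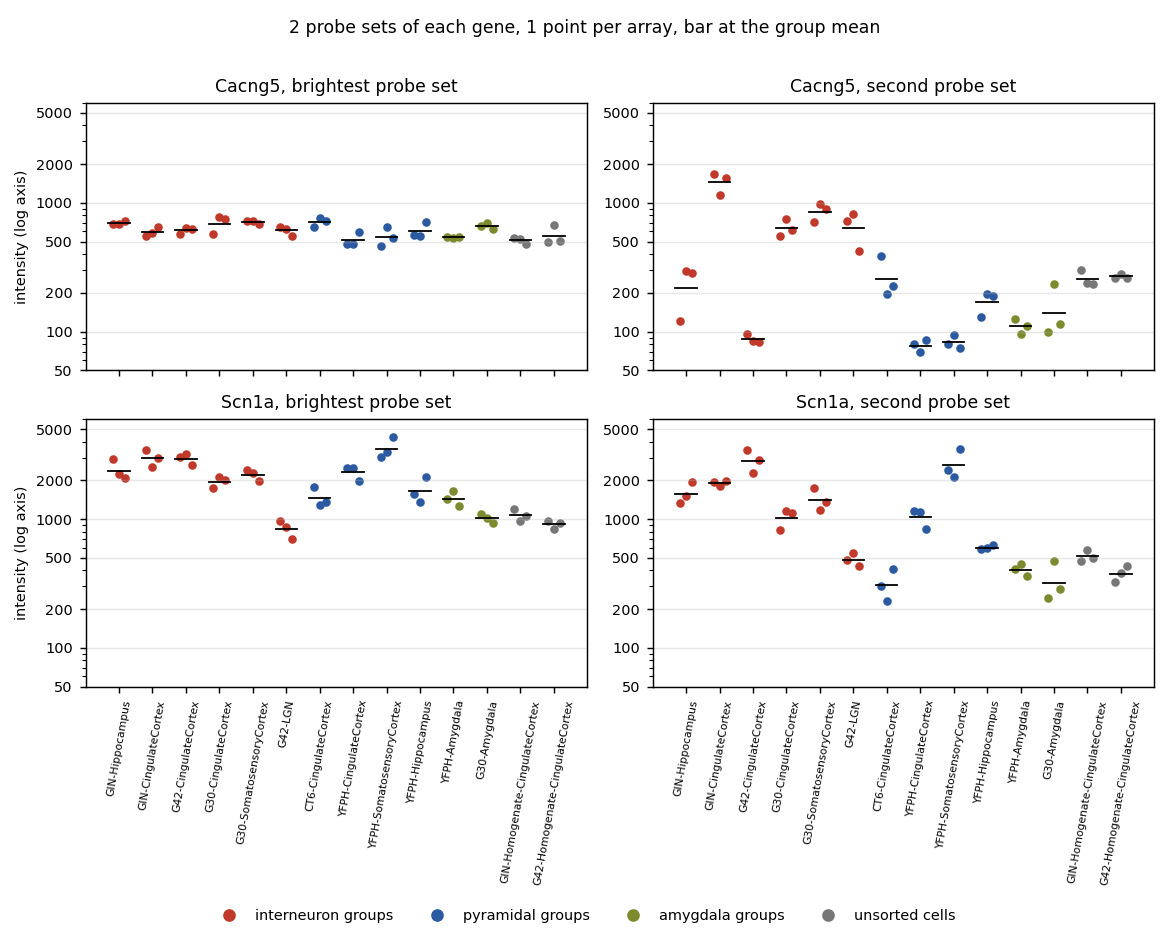
Array intensity (log axis) of the brightest and the second probe set of Cacng5 and of Scn1a in each of the 14 groups, coloured by class, each point 1 array and each bar the mean of the log2 values. The brightest Cacng5 probe set ranges over 0.45 between sorted groups and the second over 3.96.

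Genes that act with these channels were described from 2 lists. Of 15 genes that anchor or modulate sodium channels 8 were measured, and between pyramidal and interneuron groups 2 were higher and 4 lower (75% called against 45.1% of all genes, median -0.16 against -0.03). Of 18 partners of calcium channels 14 were measured, 5 higher and 1 lower (42.9% called against the same 45.1%, median 0.05). Fgf11, a member of the intracellular fibroblast growth factor homologues that bind sodium channels, was lower by a difference of -1.95 (adjusted p = 4.4e-17 in limma), and Fgf12 (-0.68) was lower as well, whereas Fgf13 (0.71) was higher. Ank3, which encodes the initial segment anchor ankyrin-G, and Sptbn4, its spectrin partner, both had differences of -0.25. Stx1a, a syntaxin of the release machinery that binds presynaptic calcium channels, was higher by 1.54 (adjusted p = 3.57e-18 in limma). Camk2b, a calcium-dependent kinase, was higher by 0.95 and Cabp1, a calcium-binding regulator of calcium channels, by 0.92. In sorted GIN and G42 cells Fgf11 was higher than in unsorted cells by 2.005 and 2.09, and Stx1a differed by -2.06 and -2.56. In the remaining 9 comparisons of sorted groups 0 to 3 of the 8 sodium partners were called (0% to 37.5%) and 0 to 5 of the 14 calcium partners (0% to 35.7%), where 0.194% to 27.2% of all genes were.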

How the data were processed

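The deposited value table holds linear intensity values for 22690 probe sets on 42 Affymetrix arrays (1 to 22818.2), with array medians between 285.83 and 330.39. The summarisation and normalization that made them are not given in the sources used here, and the number of arrays limits the precision. Per the labels' protocols, tissue was microdissected, dissociated with pronase and sorted by hand, and RNA was amplified. Control probe sets (64) were dropped. The platform annotation gave 20380 probe sets 1 gene symbol, 691 several and listed 1555 not at all; of the first, 20351 matched the RefSeq table by gene ID, with 0 symbols altered. The brightest probe set stood for each of 12393 genes.

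Log2(intensity + 16) was fitted per group with limma 3.58.1 (trended moderation, R 4.3.3), with 28 residual and 5.93 prior degrees of freedom and no filter on low values, so all 32 members were tested. P-values were adjusted by Benjamini-Hochberg over all genes per comparison, with a call at an adjusted p under 0.05. A group-specific gene differed in 1 direction from each of the other 11 sorted groups, by the largest of the 11 p-values, adjusted over genes and groups. Differences between lines were tested as interactions. The scripts' tests were tried on simulated data.

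Members and lists were chosen with earlier results of these data known. Named in full were, per comparison, up to 4 called members in each direction with the largest differences and no overlap, per role the 2 with the largest range, group-specific members, members whose probe sets were called in opposite directions, and a set of well-known subunits whatever their values. Some subunits of that set are not analysed here. Alternatives were other pseudocounts, a low-value filter, quantile and median scaling, probe-set means, scan day and scan year blocks, a Gapdh covariate, compared arrays only, arrays marked in the records left out, and each array left out. The interactions and the second-year comparison were added after the data were seen. Array records gave 21 scan days in 3 years, with 1 array dated by its hybridization. No comparison had the correlation of every same-numbered pair of replicates above 0.1, so replicate numbers were not used as pairs. In CT6-CingulateCortex minus YFPH-CingulateCortex alone, each replicate correlated best with its own number (0.02, 0.12 and 0.10). Some arrays share age and scan day under other numbers: G30-CingulateCortex 2 and 3 with G30-SomatosensoryCortex 1 and 2 (57 and 59 days). YFPH-CingulateCortex 1 and YFPH-SomatosensoryCortex 1 (65 days) share them too, with a correlation of 0.29. YFPH-Hippocampus 1, 2 and 3 share them with YFPH-Amygdala 2, 1 and 3 (106, 99 and 91 days), groups not compared directly here. GIN-CingulateCortex 1, 2 and 3 share scan days with GIN-Homogenate-CingulateCortex 2, 3 and 1. None of these pairings entered the main fit.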

Additional observations from a re-analysis of the deposited data

Results flagged for a closer look

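The step from cingulate cortex to hippocampus differed between YFPH pyramidal cells and GIN interneurons (YFPH minus GIN, tested as an interaction in limma with Benjamini-Hochberg adjustment) for 8 members, against 16.8% of all genes. The log2 difference of differences was positive for Cacna1g (1.92), Scn3b (1.13), Scn2a (1.07), Cacna1c (1.06), Cacng8 (0.80), Scn10a (0.58). It was negative for Cacng2 (-1.22), Cacng4 (-0.68). Their limma results ran over SE 0.14 to 0.26, with adjusted p from 3.01e-07 to 0.0173. YFPH-Hippocampus mice were 91 days or older, and the part of age was not tested.

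The step from cingulate to somatosensory cortex differed between YFPH and G30 cells for Scn3b, against 0.436% of all genes. The difference of differences was -2.18 (SE 0.24, limma adjusted p = 7.88e-07).

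The step from cingulate cortex to amygdala differed between YFPH and G30 cells (YFPH minus G30) for 5 members, against 9.13% of all genes. Marker genes moved with this step in the G30 line: from G30-CingulateCortex to G30-Amygdala mean log2 levels went from 12.11 to 8.08 for Gad1, 12.47 to 7.51 for Vip, 8.86 to 12.89 for Nrgn and 6.44 to 11.65 for Crym. Scan years differed as well, and YFPH-Amygdala mice were 91 days or older. The part of the markers, scan years or ages was not tested. The log2 difference of differences was positive for Cacna1g (1.03), Cacng4 (0.46). It was negative for Cacna1h (-2.13), Cacna2d3 (-1.19), Scn8a (-0.72). Their limma results ran over SE 0.14 to 0.36, with adjusted p from 6.08e-05 to 0.0417.

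The step from unsorted to sorted cells differed between the GIN and G42 lines (GIN minus G42) for 10 members, against 7.31% of all genes. The log2 difference of differences was positive for Cacna2d3 (3.90), Scn3b (2.58), Scn2a (1.73), Cacna1g (1.49), Cacng4 (0.69), Cacng3 (0.66), Cacng8 (0.57). It was negative for Scn8a (-0.86), Cacna2d2 (-0.84), Cacng2 (-0.79). Their limma results ran over SE 0.14 to 0.26, with adjusted p from 8.83e-14 to 0.0287. The sorted arrays are those of GIN-CingulateCortex minus G42-CingulateCortex, where Cacna2d3 differed by 4.08 and Scn3b by 2.59, so the result is not independent of that comparison. The Gapdh difference averaged 3.21 and 1.98 in sorted GIN and G42 cells and 1.998 and 1.97 in unsorted ones, and its part was not tested.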

How the results depend on the processing

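Of 114 called member differences, 114 stayed called with a pseudocount of 1, 111 with a pseudocount of 64, 105 with quantile normalization, 107 with a random block for scan day, 105 with median centring, 109 with probe-set means and 109 without the arrays marked in the records. The 25th-percentile filter kept 95 of the 95 it still tested, and the compared arrays alone kept 83 of 97. Scan year as a block kept 97, ended 15 and changed the sign of 2 that were then not called, and the Gapdh covariate ended 27 (the causes were not tested). Leaving out single arrays kept 969 of 1092 calls and reversed 0.

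Between pyramidal and interneuron groups 17 members became 10 with scan year, 1 with each cell type as 1 replicate, 11 with cingulate groups only and 10 on second-year arrays only. GIN-CingulateCortex minus G42-CingulateCortex went from 15 to 8 with the Gapdh covariate (46.9% to 25% of members, 27.2% to 12% of all genes). CT6-CingulateCortex minus YFPH-CingulateCortex went from 8 to 4 with scan year, 5 with the Gapdh covariate and 5 with compared arrays only (also 5 without YFPH-CingulateCortex replicate 1 or 2). For these 3 settings the shares were 12.5%, 15.6% and 15.6% of members against 3.85%, 5.65% and 7.21% of all genes, from 25% against 10.4%. YFPH-Hippocampus minus YFPH-CingulateCortex went from 4 to 2 with compared arrays only (6.25% against 4.49% of all genes) and 2 without YFPH-Hippocampus replicate 2. G30-SomatosensoryCortex minus G30-CingulateCortex went from 0 to 1 without the marked arrays (3.12% against 0.178% of all genes). YFPH-Amygdala minus G30-Amygdala went from 7 to 1 with scan year (3.12% against 1.27%) and 3 with the Gapdh covariate (9.38% against 4.48%). The group-specific count went from 1 to 2 without GIN-Hippocampus replicate 3 or YFPH-SomatosensoryCortex replicate 2.

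With single arrays left out, members called ranged over 25 to 28 for the F test, 14 to 17 for the classes, 11 to 15 for GIN minus G42, 11 to 14 for G30 minus G42, 5 to 9 for CT6 minus YFPH, 2 to 3 for YFPH somatosensory, 2 to 4 for YFPH hippocampus, 7 to 11 for GIN hippocampus, 0 to 0 for G30 somatosensory, 8 to 11 for G42-LGN, 6 to 7 for the amygdala, 11 to 12 for GIN and 13 to 15 for G42 against unsorted cells, and 1 to 2 for group-specific members.

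Between the classes some called members changed sign and were no longer called. These were Cacna1d (0.026) and Scn3b (0.16) in cingulate groups only, Cacnb1 (0.051) with probe-set means, Cacng5 (0.059) and Scn7a (0.066) with scan year, and Scn7a (0.013) on second-year arrays. Scn1a and Cacng6, not called in the main fit, were called with the other sign. Scn1a was so in cingulate groups only (-0.49) and with probe-set means (-0.32), and Cacng6 with probe-set means (-0.10). Cacng5 was not called in the main fit for GIN minus G42, GIN hippocampus minus cingulate, G42-LGN minus G42-CingulateCortex or G42 minus unsorted cells. With probe-set means it was called there with the other sign (1.88, -1.21, 1.32 and -0.65, respectively).

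Over all genes, calls went from 5592 for the classes to 2056 (scan year), 568 (each cell type as 1 replicate), 3189 (cingulate only) and 2321 (second year). With the Gapdh covariate they went from 3367 to 1486 for GIN minus G42, 1295 to 700 for CT6 minus YFPH, 1857 to 1078 for GIN hippocampus, 2645 to 1635 for G42-LGN, 1920 to 555 for the amygdala and 3119 to 2034 for GIN minus unsorted cells. With scan year they went to 477 for CT6 minus YFPH and 158 for the amygdala. With compared arrays only they went from 152 to 50 for YFPH somatosensory, 1002 to 557 for YFPH hippocampus, to 853 for GIN hippocampus and from 24 to 1 for G30 somatosensory, which had 44 with scan day as a random block. Without the marked arrays they were 101 for YFPH somatosensory and 1195 for the amygdala. Single arrays left out gave 73 to 230 for YFPH somatosensory (73 without YFPH-SomatosensoryCortex replicate 3), 759 to 1455 for CT6 minus YFPH, 588 to 1004 for YFPH hippocampus, 1195 to 2384 for GIN hippocampus, 18 to 43 for G30 somatosensory and 1151 to 1698 for the amygdala.

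The replicate block, over numbers that do not pair the samples, kept 114 of the 114 calls and added 2. Samples each correlated best with their own number in CT6 minus YFPH alone, a hint from the data and not the design. Probe sets near the dim end of the arrays limit what can be seen for the 9 members under the 25th percentile.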

Other observations

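Cacng5, an escort of AMPA receptors, was followed on its second probe set over the remaining groups, a choice made after its values were seen. Its intensities were 552, 754 and 612 in G30-CingulateCortex, 714, 983 and 893 in G30-SomatosensoryCortex, and 726, 823 and 424 in G42-LGN. CT6-CingulateCortex read 387, 195 and 225, and YFPH-SomatosensoryCortex read 80.7, 94.1 and 74.8. GIN-Hippocampus read 121, 294 and 286, below all 3 arrays of GIN-CingulateCortex. In limma with Benjamini-Hochberg adjustment this probe set differed by -1.72 between pyramidal and interneuron groups (adjusted p = 5.41e-14) and by 1.54 between CT6-CingulateCortex and YFPH-CingulateCortex (adjusted p = 9.62e-05). It also differed by -2.64 between GIN-Hippocampus and GIN-CingulateCortex and by 2.64 between G42-LGN and G42-CingulateCortex. The brightest probe set gave -0.14, 0.44, 0.23 and -0.01 for the same comparisons, and the 2 probe sets had a correlation of 0.48 over the 12 sorted group means, which share arrays and RNA.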
